A study of Mus musculus with 8 samples.

Results

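Antibody light chains are assembled from V, J and constant (C) segments at the *Igk* (κ) locus of chromosome 6 and the *Igl* (λ) locus of chromosome 16, and 5-hydroxymethylcytosine (5-hmC) was examined over every such segment in mouse pro-B cells. The segments were taken from the GENCODE annotation of GRCm38 as genes whose symbol starts with Igk or Igl and whose gene type starts with IG_, a rule that reads the annotation alone and no peak. This gave 178 of the 55413 genes annotated on chromosomes 1 to 19, X and Y. The *Igk* locus held 160 V segments (Igkv), 5 J segments (Igkj) and 1 constant gene (Igkc). Of the Igkv, 60 are annotated as pseudogenes and 100 as genes. Segments not annotated as pseudogenes are called functional below, which does not say that each of them is used. The *Igl* locus held 3 V (Iglv), 5 J (Iglj) and 4 constant (Iglc) segments.

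In a B cell precursor, the RAG recombinase joins a V to a J segment by cutting at recombination signal sequences, a heptamer and a nonamer separated by a spacer, which flank each segment. Heavy chain rearrangement comes first, in pro-B cells, where the surrogate light chain (Igll1 with Vpreb1 or Vpreb2) stands in for the light chain, and most κ rearrangement follows in pre-B cells, with λ used by a small share of mouse B cells. In DNA, TET enzymes oxidise 5-methylcytosine, which lies mainly in CpG, to 5-hmC, a step on the way to loss of methylation, and the *Igk* locus is known to lose methylation as it becomes ready to recombine. The intron between the last J segment and Igkc carries the intronic κ enhancer, and a further enhancer lies after Igkc.

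Peaks of hMeDIP-seq, in which sonicated DNA is pulled down with an antibody against 5-hmC and sequenced, came from sorted bone marrow pro-B cells (B220+ CD43+ IgM-) of C57BL/6 mice aged 4 to 6 weeks. The libraries labelled HDAC7-deficient (n = 2) came from Hdac7 fl/- mice in which mb1-cre, a Cre recombinase knocked into *Cd79a* and so active in B cell progenitors, deletes the floxed copy, while the other copy is absent in all cells. The libraries called wild-type (n = 2) came from Hdac7 +/- littermates, which have a single working copy, so every group carried the null allele. Whether those littermates carried mb1-cre, and whether a library came from 1 mouse or several, is not given in the sources used here, so the p-values below measure the spread between libraries, which may be technical. Each list held between 1305200 and 1414862 peaks, which covered between 229967837 and 273728392 bp, with median widths between 146 and 172 bp. The lists give positions alone, so peak number and peak bases (base pairs of a window that lie under peaks) are the measures, and neither is an amount of 5-hmC at a base. With 2 libraries per genotype two-sided exact permutation has a floor of p = 0.333, so this test, the one used here for a single value, could not call a difference between genotypes. Each value is therefore given per library, and the groups are said to overlap or not. HDAC7-deficient replicate 2 stood apart on chromosome 16, where its density of peak bases relative to chromosomes 1 to 13 was 1.21, against 0.991 to 0.998 in the other libraries. On chromosome 6 the same ratio was between 0.981 and 0.997 in all 4 libraries. Hdac7 itself (chr15:97792664-97844502) carried 9903 and 8064 peak bases in wild-type against 6652 and 8973 in HDAC7-deficient libraries, with 2 kb on each side, and the groups overlapped. A peak list holds no expression, so the deletion and the cell type could not be checked with these data.

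The J segments are shown first because they are the targets of V to J joining and because all of their windows were higher in both HDAC7-deficient libraries. Bases are from GRCm38, on the coding strand, with CpG in capitals.
Igkj1 (chr6:70722562-70722599): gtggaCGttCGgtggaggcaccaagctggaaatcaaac
Igkj2 (chr6:70722916-70722958): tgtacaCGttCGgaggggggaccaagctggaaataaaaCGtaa
Igkj3 (chr6:70723223-70723260): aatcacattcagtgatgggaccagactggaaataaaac
Igkj4 (chr6:70723548-70723585): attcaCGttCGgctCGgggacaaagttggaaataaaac
Igkj5 (chr6:70723886-70723927): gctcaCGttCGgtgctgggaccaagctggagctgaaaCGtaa
Igkj3, which is known as a J segment that is not used, has no CpG, while each of the others has 2 or 3. The interval from the start of Igkj1 to the end of Igkc (chr6:70722562-70726966) held 12 CpG per kb, against 5.34 in the whole *Igk* locus and 7.97 on chromosome 6.

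Signal sequences lie just before the J segments and just after the V segments, and those of κ pair a 23-bp spacer at J with a 12-bp spacer at V. They were searched for within 15 bp of the segment's end as a heptamer that starts with CAC and, with the nonamer after the spacer, matches at least 11 of the 16 letters of CACAGTG and ACAAAAACC. They are printed with the heptamer and nonamer in capitals, before each J on its coding strand.
Igkj1, 16 of 16 letters: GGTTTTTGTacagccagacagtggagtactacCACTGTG
Igkj2, 14 of 16 letters: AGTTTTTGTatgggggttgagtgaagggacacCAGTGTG
Igkj4, 12 of 16 letters: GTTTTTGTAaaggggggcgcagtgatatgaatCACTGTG
Igkj5, 16 of 16 letters: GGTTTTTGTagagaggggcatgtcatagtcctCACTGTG
No match passed at Igkj3, Iglj3p or Iglj4, which says only that these letters are not in that window. At the V segments the search found a match at 98 of 100 functional Igkv (98.0%) and 29 of 60 pseudogenes (48.3%), against 7 of 1224 other genes of at most 2 kb on chromosome 6 (0.572%).

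Peak bases from Igkj1 to the end of Igkc numbered 300 and 579 in wild-type against 587 and 1288 in HDAC7-deficient libraries. Both HDAC7-deficient values were above both wild-type values, but the lower exceeded the higher wild-type value by only 8 bp, too narrow a gap to read. The ratio of the means was 2.13 ± 1.48 (SD propagated from the replicates, n = 2 and 2; two-sided exact permutation test, p = 0.333). It fell to 1.34 when HDAC7-deficient replicate 2 was left out and came to 3.13 when wild-type replicate 2 was. Peak number was 2 and 4 in wild-type against 6 and 5 in HDAC7-deficient libraries. With 2 kb added on each side, peak bases were 963 and 808 against 1155 and 2854, again without overlap, and the ratio was 2.26 ± 1.39.

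Each J segment was then taken with 2 kb on each side. Around Igkj1 there were 556 and 394 peak bases in wild-type against 1022 and 1850 in HDAC7-deficient libraries. Around Igkj5 there were 285 and 579 in wild-type against 703 and 1350 in HDAC7-deficient libraries. At Igkj2, Igkj3 and Igkj4 the wild-type values lay between 475 and 579 and the HDAC7-deficient values between 893 and 1850. All 5 of 5 J windows thus had more peak bases in both HDAC7-deficient libraries, a pattern seen at 13% of the 23357 annotated genes of at most 2 kb taken with the same flanks. These 5 windows share most of their sequence, so they amount to a single stretch and not to 5 observations. Igkc (chr6:70726435-70726966), which encodes the whole constant domain in a single exon, did not follow them, with 407 and 414 peak bases in wild-type against 136 and 1040 in HDAC7-deficient libraries.

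**Figure D1:**
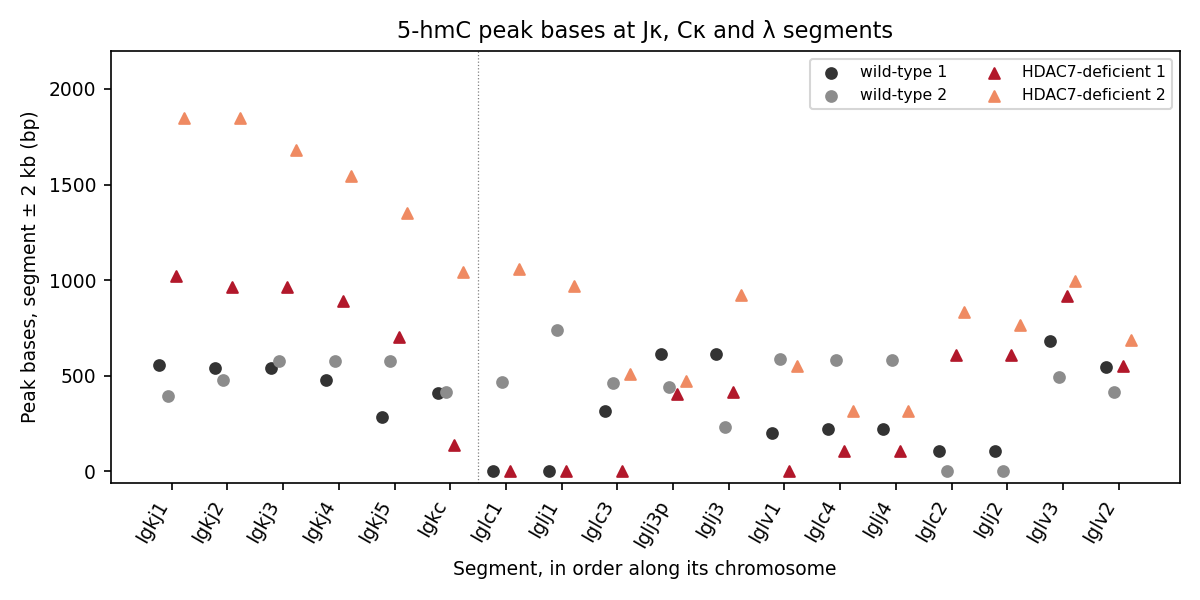
Peak bases within 2 kb of each Jκ, Cκ and λ segment (vertical axis, bp), in order along the chromosome, with a point for each of the 4 libraries (circles, wild-type; triangles, HDAC7-deficient). Both triangles lie above both circles at Igkj1 to Igkj5, and HDAC7-deficient replicate 2 is the highest point at each of them, up to 1850 bp.

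The peaks themselves lay in few places. A peak that reached the Igkj1 signal sequence was listed in wild-type replicate 1 (chr6:70722315-70722599), HDAC7-deficient replicate 1 (chr6:70722349-70722561) and HDAC7-deficient replicate 2 (chr6:70722196-70722595), and not in wild-type replicate 2. The signal sequence of Igkj2 was under a peak in wild-type replicate 2 alone, that of Igkj4 in HDAC7-deficient replicate 2 alone, and that of Igkj5 in none of the 4 libraries. Over the J segments alone (chr6:70722562-70723927) the replicates differed more than the genotypes, with 38 and 394 peak bases in wild-type against 46 and 521 in HDAC7-deficient libraries. In the intron from Igkj5 to Igkc there were 0 and 185 peak bases in wild-type against 444 and 463 in HDAC7-deficient libraries, without overlap. The ratio of the means was 4.90 ± 6.93 (two-sided exact permutation test, p = 0.333). By peak number the groups overlapped, with 0 and 2 in wild-type against 3 and 1 in HDAC7-deficient libraries. How often other stretches of this length have the same order of peak bases was not counted.

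After merging of all peaks that share at least 1 bp, 6 regions touched the J to C interval, and 1 of them was marked in the pair of HDAC7-deficient libraries while the wild-type ones lacked it. Over the genome 2.92% of 2587554 regions had that pattern, and 2.41% had the opposite one. The region (chr6:70723943-70724470, 528 bp) began 16 bp after Igkj5, in the intron. Peaks of both HDAC7-deficient libraries shared 322 bp of it without a break, of which the first 300 bp (chr6:70724116-70724415, plus strand) are printed, with the 5 CpG in capitals.
Intronic region with peaks in HDAC7-deficient libraries alone: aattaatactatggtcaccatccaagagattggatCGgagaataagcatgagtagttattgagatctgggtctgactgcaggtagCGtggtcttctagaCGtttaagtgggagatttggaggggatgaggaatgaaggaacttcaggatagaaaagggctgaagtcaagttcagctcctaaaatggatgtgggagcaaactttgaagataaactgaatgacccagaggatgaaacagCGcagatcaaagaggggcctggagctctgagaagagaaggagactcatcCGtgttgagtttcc
The intronic κ enhancer is known for an NF-κB site, and the 9 letters GGACTTTCC were searched for in the intron on both strands. They occurred once, at chr6:70725756-70725764, 1829 bp after Igkj5 and outside the region, and no library had a peak there. Of 58364 windows of the intron's length on chromosome 6, 1.85% held the same letters. A match is a description of the sequence and not a site.

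The 18384 bp between Igkv3-1, the V segment nearest to J, and Igkj1 (chr6:70704178-70722561) hold the elements known to insulate the V cluster from the J side. Peak bases there were 1986 and 2733 in wild-type against 2718 and 3605 in HDAC7-deficient libraries, and the groups overlapped (ratio 1.34 ± 0.401; two-sided exact permutation test, p = 0.667). The interval was covered more densely than the rest of chromosome 6 in 4 of 4 libraries, by 1.17 and 1.39 times in wild-type against 1.61 and 1.93 times in HDAC7-deficient libraries. An exact sign-flip test over the 4 libraries gave p = 0.125, the smallest that 4 libraries allow. The 50 kb after Igkc were likewise covered 1.28 ± 0.0880 (SD, n = 4) times as densely as the rest of the chromosome, in 4 of 4 libraries (two-sided exact sign-flip test, p = 0.125), with values of 1.18 and 1.27 in wild-type against 1.39 and 1.30 in HDAC7-deficient libraries.

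Of 35 merged regions in the V to J interval, 2 had a peak in all 4 libraries, and in only 1 of them did the peaks share bases. That stretch (chr6:70718138-70718391, 254 bp, plus strand), in a region that ends 4113 bp before Igkj1, held a single CpG, shown in capitals. It is the nearest place to the J segments at which all 4 libraries had a peak.
Region with a peak in all libraries: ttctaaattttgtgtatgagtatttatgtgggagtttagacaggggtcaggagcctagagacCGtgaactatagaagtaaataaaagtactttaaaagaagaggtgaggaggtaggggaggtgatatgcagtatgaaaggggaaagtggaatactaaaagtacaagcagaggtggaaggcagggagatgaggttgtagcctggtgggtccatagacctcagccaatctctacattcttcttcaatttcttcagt

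**Figure D2:**
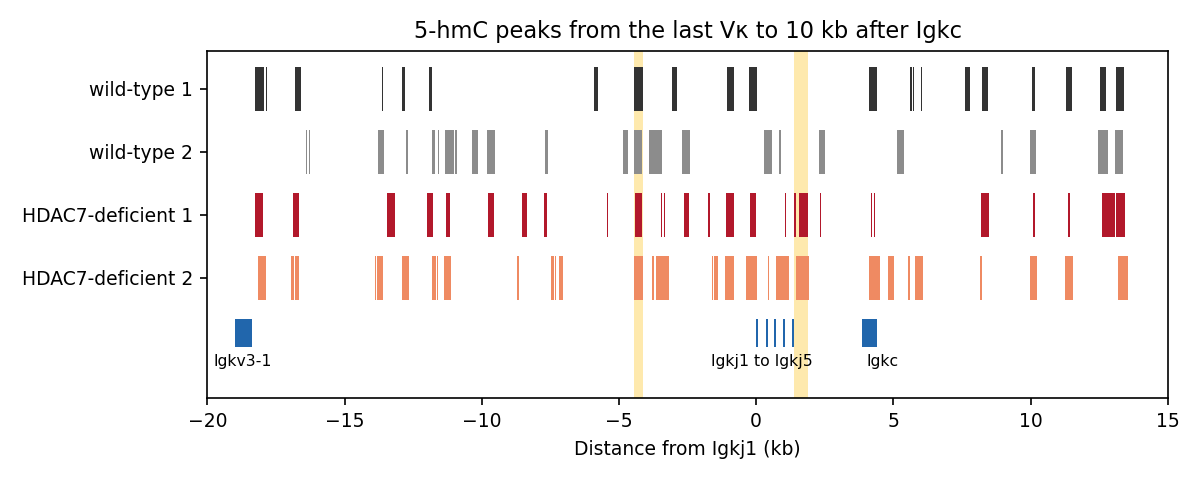
Peaks of each library (rows) from Igkv3-1 to 10 kb after Igkc, by distance from Igkj1 in kb, with the annotated segments as blue boxes and the 2 regions whose sequence is given as yellow bands. The left band has a peak in all 4 libraries and the right band, after Igkj5, in the HDAC7-deficient libraries alone.

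From the first V segment, Igkv2-137, to Igkc the locus spans 3171470 bp (chr6:67555497-70726966). Peaks covered 8.79% and 10.9% of it in wild-type against 8.65% and 10.4% in HDAC7-deficient libraries, so replicates differed more than genotypes (ratio of means 0.967 ± 0.196; two-sided exact permutation test, p = 0.667). Peak number was 1468 and 1715 in wild-type against 1643 and 1670 in HDAC7-deficient libraries (ratio 1.04 ± 0.115; exact permutation p = 1.0). Coverage relative to the rest of chromosome 6 was 0.950 and 1.02 in wild-type against 0.943 and 1.02 in HDAC7-deficient libraries (mean 0.984 ± 0.0437, SD, n = 4; exact sign-flip p = 0.5). The locus was thus neither richer nor poorer in peaks than its chromosome beyond the spread between libraries, while its CpG density was below that of the chromosome.

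Of 3058 merged regions in the locus, 378 had a peak in all 4 libraries (12.4%, against 12.5% over the genome). Regions with peaks in both HDAC7-deficient libraries alone numbered 85 (2.78%), near the 2.92% of the genome, and regions with peaks in both wild-type libraries alone numbered 76 (2.49%), near its 2.41%. Cut into stretches of 500 kb counted from Igkj1, coverage ranged from 7.02% to 13.3%, and the HDAC7-deficient to wild-type ratio from 0.875 ± 0.172 to 1.07 ± 0.165. The groups overlapped in each of the 7 stretches.

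**Figure D3:**
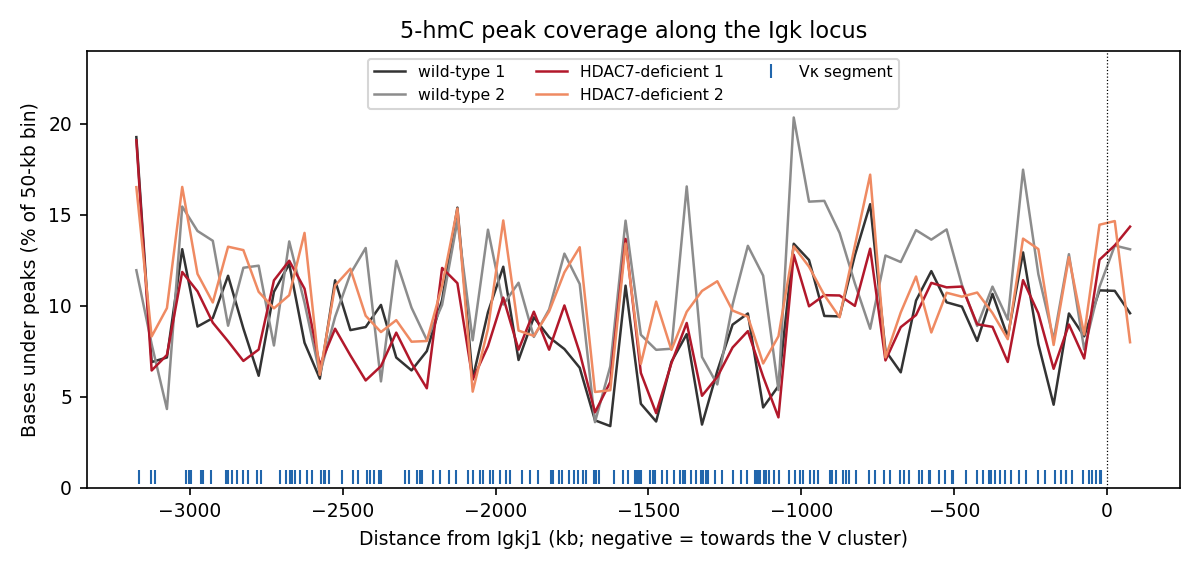
Share of each 50-kb bin under peaks (vertical axis, %) along the *Igk* locus, by distance from Igkj1 in kb, a line for each library and a tick for each Vκ segment. The lines of the genotypes cross repeatedly along the locus. Both HDAC7-deficient libraries are higher in the bins on either side of Igkj1, but also in others. In the bin from -2650 to -2600 kb, wild-type libraries have 7.968% and 10.156% against 10.936% and 13.998% in HDAC7-deficient libraries. Other bins have the opposite order, such as that from -1050 to -1000 kb, with 13.404% and 20.336% against 12.798% and 13.256%. In the bin before Igkj1, wild-type libraries have 10.842% and 11.034% against 12.522% and 14.446% in HDAC7-deficient libraries. In the bin that starts at Igkj1, the values are 10.816% and 13.302% against 13.312% and 14.648%, where the groups almost touch. How often bins show either order was not counted, so the bins beside Igkj1 are not set apart from the rest.

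Every one of the 160 Igkv windows (segment with 2 kb on each side) had a peak in at least 1 library, and 112 had a peak in all 4. Median peak bases per window were 333.5 and 402 in wild-type against 308 and 419.5 in HDAC7-deficient libraries. The Igkv windows together were covered to 8.61% and 10.8% in wild-type against 8.68% and 10.4% in HDAC7-deficient libraries (ratio 0.987 ± 0.200).

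More peak bases in both HDAC7-deficient libraries were found at 22 of 160 Igkv segments (13.8%) and fewer in both at 25 (15.6%). The background was 13% and 14.3% of the 23357 genes of at most 2 kb, so the V segments did not stand out in either direction. Over all 178 light chain segments the counts were 31 (17.4%) and 25 (14%), and the 5 overlapping Igkj windows are among the 31. Without flanks the counts were 6 and 3, and with peaks of at least 200 bp the higher count was 20. The background was not counted at these settings, so nothing is read from these changes. The median difference, HDAC7-deficient minus wild-type, was 10.5 bp over the Igkv segments, 27.75 bp over all light chain segments and 0 bp over the genes of at most 2 kb. By peak number, 24 Igkv segments (15%) were higher and 7 (4.38%) lower in both HDAC7-deficient libraries, against 8.73% and 7.06% of the genes. Over all 178 segments these counts were 28 and 8. The measures thus gave different counts, with far fewer segments in the lower class by peak number than by peak bases, and HDAC7-deficient replicate 1 had the most peaks in the genome and the narrowest, with a median of 146 bp. The part of peak width in these counts was not tested.

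**Figure D4:**
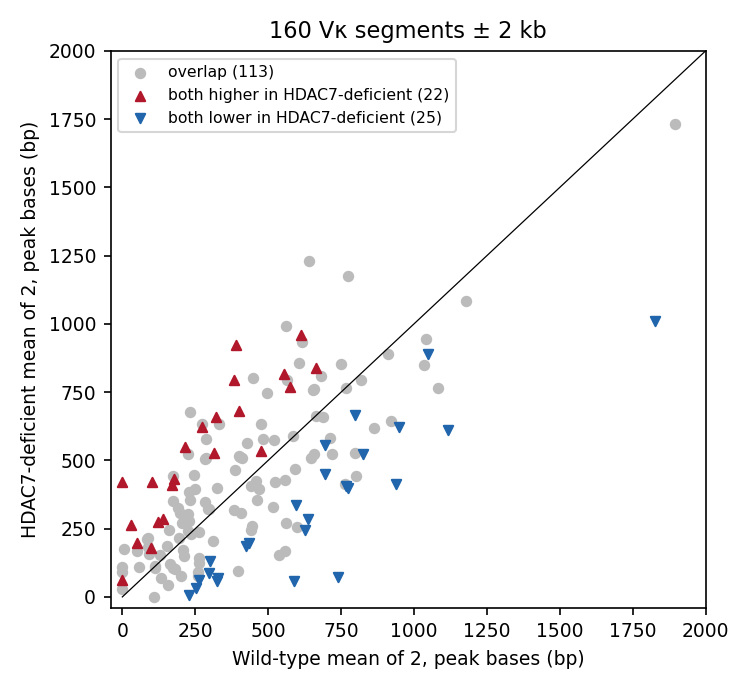
Mean peak bases of the 2 HDAC7-deficient libraries against the mean of the 2 wild-type libraries for each of 160 Vκ windows (bp on both axes; the line marks equality). Segments with both HDAC7-deficient libraries higher (22, red) and both lower (25, blue) lie on either side of the 113 segments whose groups overlap (grey).

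The segments with the widest gaps between the genotypes were taken by rule, so their values are a description. Igkv13-73-1, a pseudogene (chr6:69190083-69190282), had 0 and 0 peak bases in wild-type against 367 and 473 in HDAC7-deficient libraries. Igkv8-30 (chr6:70117061-70117620) had 516 and 263 in wild-type against 1038 and 805 in HDAC7-deficient libraries. Igkv8-27 (chr6:70171809-70172270) had 296 and 470 against 903 and 685. At these 3 both HDAC7-deficient libraries were higher, and Igkv8-30 and Igkv8-27 are functional members of the same family. The V window of Igkv4-74 had 401 and 396 against 630 and 733, and that of Igkv4-59 had 344 and 86 against 492 and 609.

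In the other direction, Igkv1-110 (chr6:68270485-68271267) had 608 and 571 peak bases in wild-type against 116 and 0 in HDAC7-deficient libraries. Igkv6-29 (chr6:70138462-70139110) had 901 and 977 against 481 and 344. The other 3 segments that the rule took, Igkv13-76, Igkv13-57-2 and Igkv13-82, are pseudogenes of the Igkv13 family, which also holds Igkv13-73-1, the segment with the widest gap upward. Igkv13-76 had 1711 and 1939 in wild-type against 1344 and 679 in HDAC7-deficient libraries. Igkv13-57-2 had 1014 and 1217 against 539 and 684. Igkv13-82 had 781 and 755 against 371 and 441. The family of 18 segments had 4 members higher and 3 lower in both HDAC7-deficient libraries. Among genes of at most 2 kb the shares were 13% and 14.3%. The family is named because of the gaps of its members, so its counts are a description.

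The most peak bases lay around Igkv17-134, a pseudogene at the far end of the locus (chr6:67720729-67721225), with 1486 and 2304 in wild-type against 1672 and 1794 in HDAC7-deficient libraries. Beside it, 352 bp away, lay a region with a peak in all 4 libraries (chr6:67719088-67720377) in which 852 bp were shared by all of them. It had the most shared bases of any region of both light chain loci. Igkv1-122 followed among functional segments, with 1244 and 1109 in wild-type against 1129 and 1039 in HDAC7-deficient libraries, a window in which the 4 libraries were close. Igkv17-127 had 1277 and 0 in wild-type against 1165 and 1296 in HDAC7-deficient libraries, so that a single wild-type library lacked every peak there. The rest of the 10 highest windows, Igkv3-12, Igkv4-83, Igkv17-121, Igkv6-14, Igkv6-13 and Igkv6-32, had between 371 and 1685 peak bases in a library. All of the 10 but Igkv13-76 and Igkv17-121 overlapped between genotypes. The first V segment, Igkv2-137 (chr6:67555497-67556216), had 774 and 819 in wild-type against 673 and 658 in HDAC7-deficient libraries, and the last, Igkv3-1 (chr6:70703578-70704177), had 846 and 384 against 823 and 1046.

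By family, the 3 Igkv17 segments were covered most, 27.5% as a mean of 4 libraries, with all libraries between 24.9% and 29.5%. The 9 Igkv6 segments followed among families of 3 or more, with 15.8% and a range of 13.6% to 17.9%. The lowest of those families was Igkv10, with 3 segments and 3.96%. The largest, Igkv4 with 33 segments, had 6.95%. Genes of a family share sequence, and the share of 50-base words found once in the genome had a median of 62.3% in Igkv17 windows and 82.9% over all 160. Across the 160 windows, peak bases averaged over libraries had a Pearson correlation of 0.425 (Spearman 0.449) with GC content, 0.0493 (0.109) with the number of CpG and 0.196 (0.176) with the share of unique words. Between libraries the Pearson correlation over the same windows ranged from 0.378 to 0.724. The lowest was between replicates 2 of the genotypes and the highest between replicates 1. Within a genotype it was 0.455 for wild-type and 0.570 for HDAC7-deficient libraries, so the libraries did not group by genotype. Neighbouring windows can overlap and share sequence, so these are descriptions.

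Functional Igkv windows were covered 1.04 ± 0.159 (SD, n = 4) times as much as pseudogene windows, higher in 3 of 4 libraries (two-sided exact sign-flip test, p = 0.875). Over the segments without flanks the ratio was 2.05, so its size depended on the flanks. Segments on the plus strand (75) and the minus strand (85), which join J by inversion or deletion according to their direction, had a coverage ratio of 0.973 ± 0.0600 (p = 0.375, same exact test). Igkv windows were covered 1.06 ± 0.0340 times as much as those of 185 heavy chain V segments (Ighv) and 1.38 ± 0.199 times as much as those of 170 T-cell receptor V segments, each in 4 of 4 libraries (two-sided exact sign-flip test, p = 0.125 for both). Counted over the segments without flanks, the ratio to T-cell receptor V segments was 0.964, so its direction depended on the flanks. Where T-cell receptor V windows are concerned, 48 of 170 had no peak in any library, against 0 of the 160 Igkv windows. These empty windows enter the ratio of 1.38, and their part in it was not tested.

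Peaks were sparse over the V segments themselves and frequent beside them, a contrast that was noticed after values had been seen. The annotated Igkv segments were covered to 3.01% and 6.06% in wild-type against 2.96% and 4.88% in HDAC7-deficient libraries. The 2 kb on each side were covered to 9.36% and 11.4% in wild-type against 9.46% and 11.2% in HDAC7-deficient libraries. The ratio of segment to flank was 0.321 and 0.532 in wild-type against 0.313 and 0.437 in HDAC7-deficient libraries. Its mean was 0.401 ± 0.104 (SD, n = 4), below 1 in 4 of 4 libraries (two-sided exact sign-flip test, p = 0.125, the smallest that 4 libraries allow). Among the 160 segments, only 23 and 32 in wild-type against 23 and 28 in HDAC7-deficient libraries had a peak within the segment.

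The same ratio over genes of at most 2 kb was 0.854 ± 0.0417, and the Igkv ratio was lower by 0.454 ± 0.0649 (SD, n = 4), in 4 of 4 libraries (exact sign-flip p = 0.125). Heavy chain V segments had a ratio of 0.380 ± 0.0293, and their difference from Igkv lay within the spread between libraries (0.0206 ± 0.116, exact sign-flip p = 0.875). T-cell receptor V segments had 0.579 ± 0.0674, above Igkv in 4 of 4 libraries. Pseudogene Igkv had 0.281 ± 0.151 and functional Igkv 0.459 ± 0.118, with pseudogenes lower in 4 of 4 libraries (exact sign-flip p = 0.125). Igkv segments on the plus strand had 0.241 ± 0.0411 and those on the minus strand 0.538 ± 0.169. Plus was lower in 4 of 4 libraries, a difference that was not tested. The dip was therefore present in both genotypes, in functional segments and pseudogenes, on both strands, and at the heavy chain locus, but its depth differed between sets.

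Several sequence features were set beside it. CpG density was 4.09 per kb in the segments and 4.19 in the flanks, and GC content was 42.4% and 37.6%. Soft-masked repeats made up 11.4% of the segments and 37.3% of the flanks, and over bases outside repeats the ratio was 0.467 ± 0.0864, again below 1 in 4 of 4 libraries. Segments resemble each other in sequence. The 62 segments of which at least 90% of 50-base words were unique had a ratio of 0.322 ± 0.0923, and the other 98 had 0.450 ± 0.141. The read length and the treatment of reads that map to several places are not known for these lists, and the part of mapping in the dip was not tested. Around the 3′ end of functional segments, coverage was between 1.78% and 6.48% in the bin from 750 to 500 bp before the end and between 10.1% and 11.8% in the bin from 750 to 1000 bp after it.

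**Figure D5:**
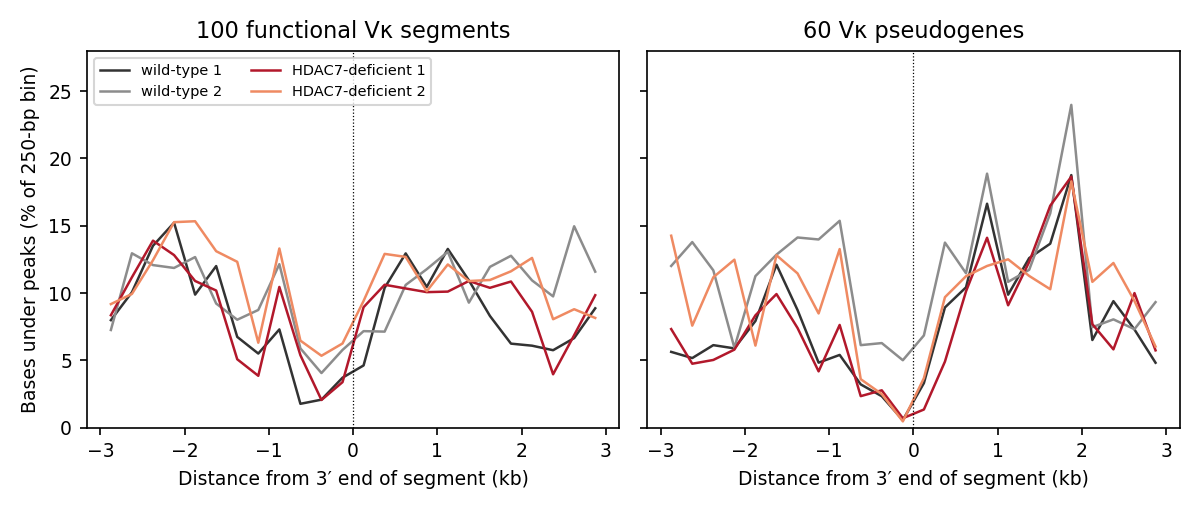
Share of bases under peaks in 250-bp bins (vertical axis, %) by distance from the 3′ end of the segment in kb, on the coding strand, for 100 functional Vκ segments (left) and 60 Vκ pseudogenes (right), a line for each library. In both panels all 4 libraries fall to their lowest values within 1 kb before the 3′ end.

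The signal sequences lie at the edge of this dip. Of the 127 found at Igkv segments, a peak met 5 and 13 in wild-type against 11 and 10 in HDAC7-deficient libraries. As shares these are 3.94% and 10.2% in wild-type against 8.66% and 7.87% in HDAC7-deficient libraries. Of the bases of the whole locus, 8.79% and 10.9% against 8.65% and 10.4% lay under peaks. A signal sequence counts as met when any of its bases is under a peak, so the measures are unlike. They cannot show whether signal sequences stand out from the locus, which was not tested. None was met by a peak in all 4 libraries, and 99 were met in none. A peak in both HDAC7-deficient libraries alone met 1 of 127 (0.787%) and a peak in both wild-type libraries alone met 0, against 2.92% and 2.41% of merged regions over the genome, which are wider than a signal sequence. The nearest to a shared peak were those of Igkv8-34 and Igkv7-33, wholly under a peak in 3 libraries each. The signal sequence of Igkv8-27 is printed beside them as the 1 of 127 met in the HDAC7-deficient libraries alone. Heptamer and nonamer are in capitals, on the coding strand of the V segment.
Igkv8-34 (chr6:70044084-70044111): CACAGTGctttagccttctACACAAACC
Igkv7-33 (chr6:70058604-70058631): CACAGTGcttcagcctcctACACAAACC
Igkv8-27 (chr6:70171781-70171808): CACAATGcttcagcctcctACAAAAACC
These 3 were chosen after their values were seen, and all lie in the J-proximal part of the cluster. The signal sequence of Igkv2-112, 2502 kb before Igkj1, is not printed but was also met in 3 libraries. It lay wholly under a peak in wild-type replicate 1 and partly in both HDAC7-deficient libraries.

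The λ locus (chr16:19061618-19260859, 199242 bp) holds its segments in reverse order on the minus strand. Peaks covered 8.61% and 12.9% of it in wild-type against 8.88% and 13.2% in HDAC7-deficient libraries, so replicate 2 of each genotype was the higher (ratio of means 1.02 ± 0.404; two-sided exact permutation test, p = 0.667). Coverage relative to the rest of chromosome 16 was 0.916 and 1.21 in wild-type against 0.958 and 1.07 in HDAC7-deficient libraries (mean 1.04 ± 0.132, SD, n = 4; exact sign-flip p = 0.625). Peak number was 112 and 126 against 105 and 124. The raised density of HDAC7-deficient replicate 2 on chromosome 16 touches every λ value below, and its part in them was not tested. Of 215 merged regions, 29 had a peak in all 4 libraries (13.5%), 7 in both HDAC7-deficient libraries alone (3.26%) and 5 in both wild-type libraries alone (2.33%), near the 2.92% and 2.41% of the genome.

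The λ J segments are printed because they and the constant genes make units of J and C, in which the unit of Iglj4 and Iglc4 and the segment Iglj3p are known not to be used. CpG is in capitals, on the coding strand.
Iglj1 (chr16:19063225-19063262): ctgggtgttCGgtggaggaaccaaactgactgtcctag
Iglj3p (chr16:19066371-19066408): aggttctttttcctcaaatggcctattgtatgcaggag
Iglj3 (chr16:19067041-19067078): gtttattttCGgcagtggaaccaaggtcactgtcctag
Iglj4 (chr16:19196495-19196536): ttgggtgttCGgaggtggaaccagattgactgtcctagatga
Iglj2 (chr16:19200198-19200235): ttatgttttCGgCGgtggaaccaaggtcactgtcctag

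The Iglj2 and Iglc2 unit, taken with 2 kb on each side, was the λ unit with more peak bases in both HDAC7-deficient libraries. Around Iglj2 there were 106 and 0 in wild-type against 607 and 767 in HDAC7-deficient libraries. Around Iglc2 (chr16:19198396-19200351), whose annotated span includes Iglj2, there were 106 and 0 against 607 and 832, so these windows are a single observation. More peak bases in both HDAC7-deficient libraries were seen at 13% of the genes of at most 2 kb. By peak number both windows had 2 and 0 in wild-type against 2 and 5 in HDAC7-deficient libraries, and the groups overlapped. The order of peak bases also depended on the flanks. Within the annotated Iglc2 span alone there were 106 and 0 against 427 and 69, and the groups overlapped. From Iglc4 to Iglc2 there were 329 and 439 against 531 and 385, again with overlap. A region with peaks in both HDAC7-deficient libraries alone lay 398 bp from Iglc2 (chr16:19200749-19201218), with 180 bp shared by both.

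At the Iglj1 and Iglc1 unit the split followed the replicate number and not the genotype. Around Iglj1 there were 0 and 738 peak bases in wild-type against 0 and 968 in HDAC7-deficient libraries. Around Iglc1 (chr16:19061618-19062071) there were 0 and 465 against 0 and 1056. Iglc3, a constant gene (chr16:19065230-19065681), had 313 and 461 against 0 and 508. Iglj3 had 611 and 230 against 414 and 922, and Iglj3p 611 and 443 against 402 and 473. Iglj4 and Iglc4 (chr16:19194999-19195312), whose windows overlap, had the same 223 and 584 against 104 and 316. The groups overlapped at all of these.

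Of the λ V segments, Iglv3 (chr16:19241207-19241690), known as Vx in the older literature, had 681 and 493 peak bases in wild-type against 915 and 997 in HDAC7-deficient libraries. Iglv2 (chr16:19260401-19260859) had 546 and 415 against 549 and 686, a gap of 3 bp between the groups. Iglv1 (chr16:19085017-19085500), which pairs with the Iglj1 and Iglj3 units, had 200 and 588 against 0 and 552 and overlapped. The stretch from Iglv3 to Iglv2 carried 1850 and 2391 peak bases in wild-type against 2429 and 2453 in HDAC7-deficient libraries (ratio 1.15 ± 0.208; two-sided exact permutation test, p = 0.333), and the difference lay within the propagated spread.

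Igll1 (chr16:16860671-16863985), the λ5 chain, had 1109 and 2215 peak bases in wild-type against 843 and 1575 in HDAC7-deficient libraries with 2 kb on each side. Vpreb1 (chr16:16868403-16870843) had 941 and 1540 against 1222 and 843, and Vpreb2 (chr16:17980428-17981273) 1120 and 589 against 683 and 1136. The groups overlapped at each of the 3. Vpreb3 (chr10:75943057-75949657), a related gene of B cell precursors, had 2867 and 3279 in wild-type against 2538 and 2275 in HDAC7-deficient libraries, so peak bases were lower in both. Its peak number went the other way, with 13 and 12 in wild-type against 14 and 16 in HDAC7-deficient libraries.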

How the data were processed

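The 4 deposited peak lists hold the chromosome, start and end of each peak, with no signal, score or p-value, so depth is unknown and no counting interval is given. The authors trimmed reads (Trim Galore, version 0.4.2; Cutadapt, version 1.6), removed duplicates with Picard, made an RPKM track with deepTools and called peaks in each library by the bdgpeakcall command of MACS2, at a signal cutoff of 250, for peaks of at least 10 bp with gaps of up to 10 bp bridged. The methods name bwa and the submitters' processing notes Bowtie2 as aligner, and it is not stated whether the removal of peaks that met input peaks came before deposit. The build is mm10 (GRCm38). The inputs (4 libraries) were not analysed here, and the DiffBind analysis, which needs reads, was not repeated.

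Peak number and peak bases were counted per segment with 2 kb on each side and per locus in Python 3.11.15 with NumPy 2.4.6 and pandas 2.3.3, after a test on simulated data. Genotypes were compared by two-sided exact permutation (6 splits), and paired measures within libraries by exact sign-flip (16 patterns). Background rates came from 23357 genes of at most 2 kb and from all merged regions. Named were all J, C and λ segments, the 10 Igkv segments with most peak bases, the 5 with the widest gap in each direction, the first and last Igkv, the surrogate light chain genes and Hdac7. The rule for members reads the annotation alone, but the light chain loci, the lists and the other rules were chosen with earlier results of these data known. Alternatives were peaks of at least 200 bp, merged peaks, other flanks and scalings, and each library left out.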

Additional observations from a re-analysis of the deposited data

How the results depend on the processing

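Depth and peak height are unknown, and with 2 libraries per genotype the exact permutation test used here could not call a genotype difference. The cause of the following changes was not tested. The κ J to C ratio, the V to J ratio, the Vκ to Ighv ratio, the functional to pseudogene ratio and the segment to flank ratio kept their direction under every alternative tried; with libraries left out they ranged from 1.34 to 3.13, 1.15 to 1.59, 1.05 to 1.08, 1.00 to 1.12 and 0.357 to 0.430. Over the segments without flanks the functional to pseudogene ratio was 2.05. The whole-locus ratios lay near 1 and crossed it. The Igk peak base ratio was 1.0003 when scaled to chromosomes 1 to 13 and 0.872 to 1.09 with a library left out, and that of the V cluster 0.868 to 1.08. The Igl peak base ratio was 0.953 when scaled to the rest of chromosome 16, and 0.825 to 1.28 with a library left out. With peaks of at least 200 bp the Igk peak number ratio was 0.950, that of Igl 1.01 and the Igk coverage relative to chromosome 6 1.01; with a library left out they were 0.966 to 1.13, 0.882 to 1.04 and 0.971 to 0.998, and the Igl coverage relative to chromosome 16 was 0.981 to 1.08. The Vκ to T-cell receptor V ratio was 0.964 without flanks and 1.32 to 1.46 with a library left out.

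Segments with more peak bases in both HDAC7-deficient libraries, 31 in all, numbered 6 without flanks and 20 with peaks of at least 200 bp. Those with fewer, 25, numbered 3 without flanks. Among functional segments alone, a smaller set, 22 had more and 15 had fewer, so these counts do not compare directly with 31 and 25. By peak number 28 segments (15.7%) were higher and 8 (4.49%) lower, against 8.73% and 7.06% of the genes of at most 2 kb. The background was not counted without flanks or with peaks of at least 200 bp, so nothing is read from those counts. With a library left out, which makes the rule easier to meet, the counts were 49 to 77 and 43 to 65, while the background rose to between 23.9% and 33.1% and between 26.5% and 35.3%. Over all annotated genes the background was 11.7% and 15.6%.

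Same-numbered replicates did not count as pairs. Their deviations correlated by 0.176 over windows of chromosomes 1 to 13 and by 0.0018 over the Igkv windows, and pairing takes at least 3 pairs. With the replicate number as a block, the ratio was 0.969 for Igk peak bases, 2.09 for the J to C interval and 1.02 for Igl peak bases.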
